A study of Mus musculus with 32 samples.

Results

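The 10 CC chemokine genes Ccl2, Ccl3, Ccl4, Ccl5, Ccl6, Ccl7, Ccl8, Ccl9, Ccl11 and Ccl19 were followed across RNA sequencing of cells sorted from regenerating supraspinatus, a rotator cuff muscle, of the mouse. They were taken by gene symbol and matched 11 of the 55487 gene entries, because Ccl19 has a second entry on an unplaced scaffold. The cells were FAPs (fibro-adipogenic progenitors, the mesenchymal stromal cells of muscle) and satellite cells (the muscle stem cells), both sorted as CD45-/CD31-/Sca1+ cells, without integrin alpha 7 for FAPs and with it for satellite cells. Every muscle came from wild-type male C57BL/6J mice aged 12 weeks and was injured with cardiotoxin, which kills muscle fibres. A BAT muscle then received interscapular brown adipose tissue from a donor aged 3 weeks, and a control muscle of the same mouse had the injury alone. The 8 groups of 4 libraries were FAPs with BAT at day 7, control FAPs at day 7, FAPs with BAT at day 3, control FAPs at day 3, and the same 4 for satellite cells, from 4 mice at each day. No uninjured muscle, sham operation, other graft or sorted leukocyte was analysed here, so each group carries the injury and no library is of myeloid cells. Different mice, and a different deposited table, stood behind each day, so day, mice and table cannot be told apart.

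CC chemokines are small secreted proteins, named for a pair of adjacent cysteines, that attract leukocytes by binding G protein-coupled receptors of the Ccr family, while atypical receptors of the Ackr family bind them without that signalling and clear them. Ccl2 and Ccl7 are ligands of Ccr2, which draws monocytes out of the marrow and into injured tissue, and in injured muscle the monocytes that arrive through Ccr2 become the macrophages needed for normal regeneration. Ccl11 (eotaxin) attracts eosinophils through Ccr3; mouse Ccl8 is a ligand of Ccr8; Ccl3, Ccl4 and Ccl5 attract macrophages and T cells, Ccl6 and Ccl9 bind Ccr1 in the mouse, and Ccl19 binds Ccr7 and is known from the stroma of lymph nodes.

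Of the 10 genes, 9 lie on mouse chromosome 11 in 2 groups (mm10 build, GENCODE M21 annotation). The first holds 4 members over 81.2 kb, chr11:82035571-82116799, in the order Ccl2 (chr11:82035571-82037453), Ccl7 (chr11:82045712-82047525), Ccl11 (chr11:82057823-82062955) and Ccl8 (chr11:82115185-82116799), all on the plus strand. The second holds 5 members over 139 kb, chr11:83525778-83664683, in the order Ccl5 (chr11:83525778-83530518), Ccl9 (chr11:83572919-83578636), Ccl6 (chr11:83587882-83593087) and Ccl3 (chr11:83647844-83649355) on the minus strand and Ccl4 (chr11:83662584-83664683) on the plus strand. Ccl19 lies at chr4:42754525-42756577 on the minus strand, and reads shared with its second entry make its values uncertain. RefSeq's promoter table (build GRCm38.p6) held 5 of the 10 members. The 250 bases before the start are shown for 2 genes high in FAPs, of which Ccl8 was higher and Ccl9 lower at day 7 than at day 3 in control FAPs, and for 2 genes whose levels moved with macrophage transcripts, Ccl3 and Ccl6. Each is written on its gene's own strand, with matches to the searched motifs in capitals.
Ccl8, chr11:82114935-82115184, plus strand: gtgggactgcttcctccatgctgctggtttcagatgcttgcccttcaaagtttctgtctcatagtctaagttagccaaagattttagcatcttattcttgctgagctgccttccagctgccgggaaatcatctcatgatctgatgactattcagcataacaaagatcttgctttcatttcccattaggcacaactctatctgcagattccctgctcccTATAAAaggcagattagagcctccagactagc
Ccl9, chr11:83578637-83578886, minus strand: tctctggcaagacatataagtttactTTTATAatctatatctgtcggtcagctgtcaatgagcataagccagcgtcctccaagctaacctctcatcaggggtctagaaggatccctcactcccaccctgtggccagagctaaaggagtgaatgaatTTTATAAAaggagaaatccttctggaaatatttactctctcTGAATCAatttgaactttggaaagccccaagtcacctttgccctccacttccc
Ccl3, chr11:83649379-83649628, minus strand: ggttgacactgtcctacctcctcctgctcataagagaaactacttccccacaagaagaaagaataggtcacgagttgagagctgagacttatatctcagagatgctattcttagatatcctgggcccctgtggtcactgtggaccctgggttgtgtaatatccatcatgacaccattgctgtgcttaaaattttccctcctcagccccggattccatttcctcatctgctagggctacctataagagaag
Ccl6, chr11:83593088-83593337, minus strand: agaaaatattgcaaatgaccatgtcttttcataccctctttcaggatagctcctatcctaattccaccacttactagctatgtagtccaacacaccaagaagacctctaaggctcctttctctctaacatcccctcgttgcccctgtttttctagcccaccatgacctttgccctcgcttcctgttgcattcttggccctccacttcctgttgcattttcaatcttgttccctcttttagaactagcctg
The motifs of NF-kB and of STAT6 were sought on both strands. For AP-1 the letters were TGANTCA. The TATA box was sought as TATAAA, in the same way. Among 32536 promoters of this length, 17.7%, 5.89%, 6.73% and 12.3% held them, in that order. Ccl8 had 1 match, TATAAA at -32 to -27 from the start. Ccl9 had TGAATCA at -53 to -47, TATAAA at -92 to -87, and TATAAA on the other strand (read as TTTATA) at -224 to -219 and at -94 to -89, the last overlapping the TATAAA at -92. In the windows of Ccl3 and Ccl6 no letters matched any of the 4. Ccl19, whose window is not shown, had 1 match, to the NF-kB motif at -250 to -241.

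Library totals were 19776741 to 46378918 counts. Levels are given as counts-per-million (CPM) of the library, in the order of replicates 1 to 4, and 3 counts, taken as the limit of detection, were worth 0.0647 to 0.152 CPM depending on the library. Intervals and limits from counts cover counting error only. Pdgfra, which marks FAPs, was at 251 to 436 CPM in FAPs and 0.101 to 19.1 CPM in satellite cells, whereas Pax7, which marks satellite cells, was at 0 to 1.20 CPM in FAPs and 21 to 164 CPM in satellite cells. Ly6a, which encodes the sort marker Sca1, was at 426 to 1162 CPM in FAPs and only 2.38 to 42.8 CPM in satellite cells, although both were sorted as Sca1+. Replicate 3 of every day 7 group came from 1 mouse whose 4 libraries went against the male label: Xist was at 163 to 355 CPM and Ddx3y at 0 there, against at most 0.161 CPM of Xist and 29.1 to 108 CPM of Ddx3y in the other 28 libraries.

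Leukocytes were sorted away through CD45, yet macrophage transcripts were present in some libraries, and these touch most results below. The summed CPM of 26 macrophage and monocyte genes exceeded 3 times its group median in 7 libraries, called macrophage-rich here. At day 3 these were FAPs with BAT replicate 1 (5783 CPM against a group median of 103), satellite cells with BAT replicate 4 (2324, median 154) and control satellite cells replicate 3 (2045, median 59.4); the first and second come from the same BAT muscle. At day 7 they were replicate 3 of all 4 groups, at 74.3 to 116 CPM. The rule is relative to each group. At day 3, satellite cells with BAT replicate 2 (220 CPM) and FAPs with BAT replicate 3 (129 CPM) were above these and were not marked. The defining genes followed: Ptprc (CD45 itself) reached 34.0, 10.3 and 9.91 CPM in the 3 day 3 libraries and Lyz2 2530, 1058 and 953 CPM, while in the other 29 libraries Ptprc was at most 1.18 CPM. Neutrophil genes summed to 222 CPM in control satellite cells replicate 3 at day 3 and to at most 39.6 CPM in any other library. In bulk samples such as these, fewer cells of a type and less RNA per cell cannot be told apart.

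Ccl2 and Ccl7 made up nearly all of the CC chemokine transcript of FAPs. The 10 genes took 0.282 to 0.478% of the library in FAPs with BAT and 0.291 to 0.501% in control FAPs at day 7, and 0.521 to 0.875% with BAT and 0.494 to 0.808% in control FAPs at day 3. In satellite cells the share was 0.00205 to 0.0978% over all 4 groups. Ccl2 and Ccl7 together held 88.7 to 98.5% of these counts in the 16 FAP libraries and 63.6 to 94.4% in the 16 satellite cell libraries. Per length, in transcripts-per-million (TPM), control FAPs at day 7 averaged 5517 for Ccl2, 4435 for Ccl7, 406 for Ccl11, 94.6 for Ccl8, 81.8 for Ccl5 and 4.14 for Ccl9. At day 3 the mean TPM of control FAPs ran in the order Ccl2 (9359), Ccl7 (4881), Ccl11 (172), Ccl8 (37.4), Ccl9 (21.9) and Ccl5 (18.4), so Ccl5 and Ccl9 exchanged places between the days.

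**Figure D1:**
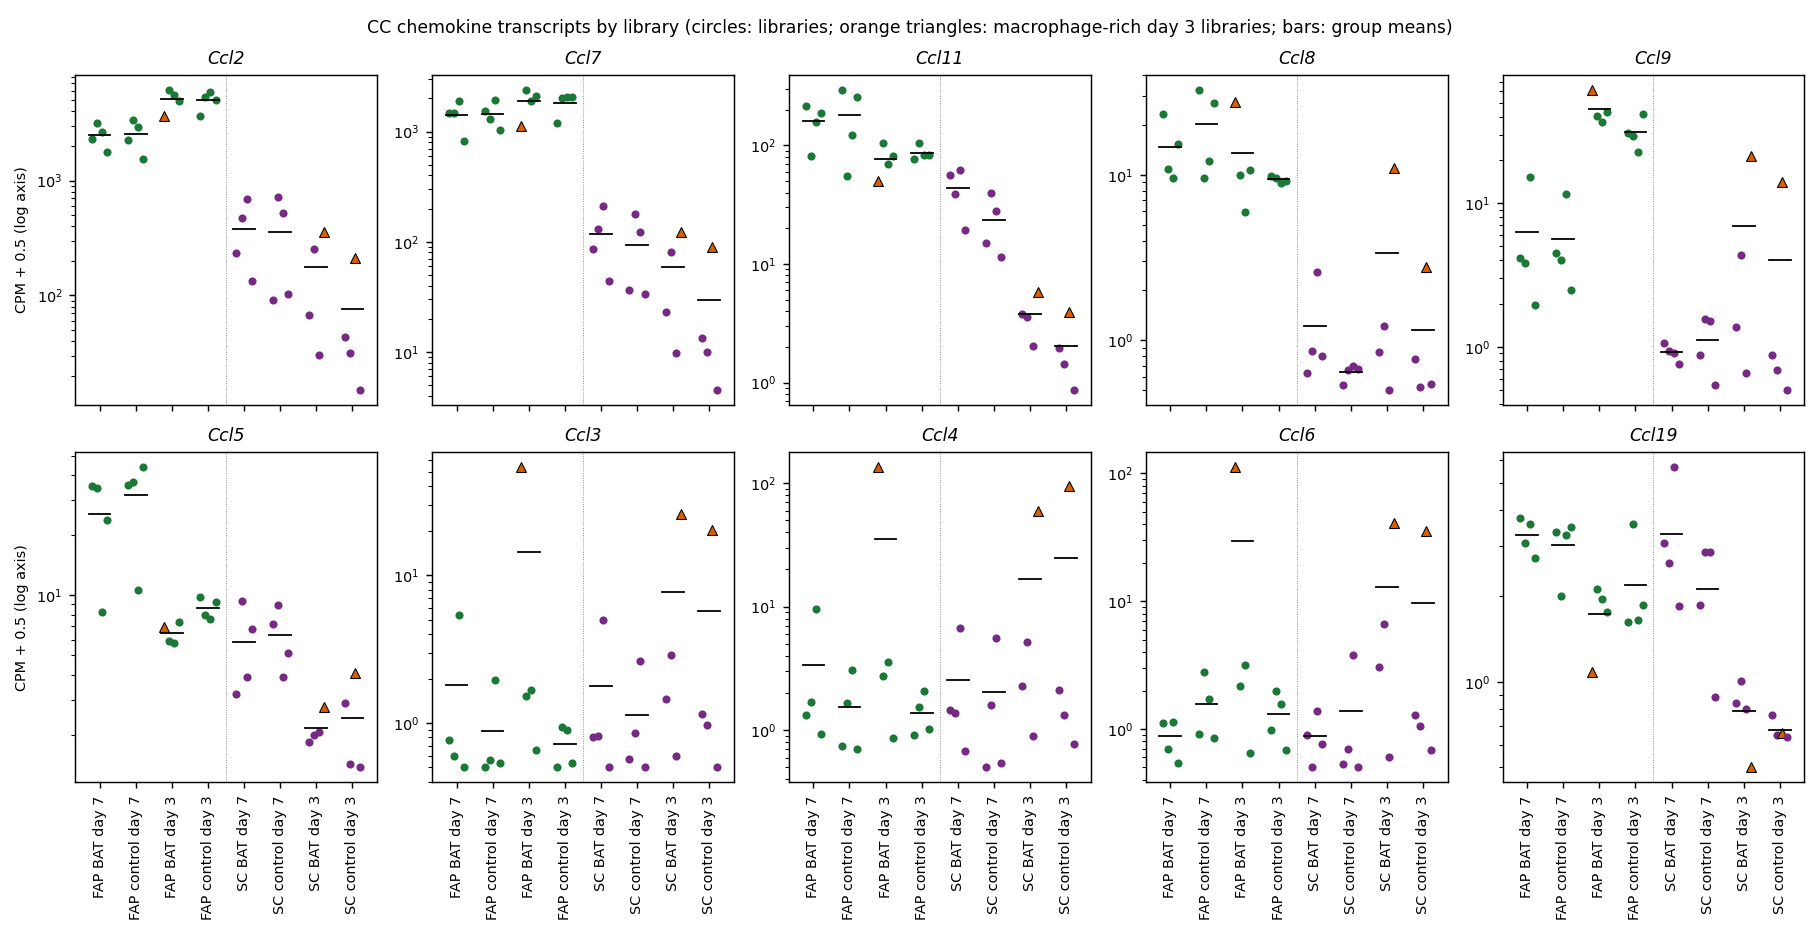
Level of each of the 10 CC chemokine genes in every library, as CPM + 0.5 on a log axis, by group with BAT left of control and day 7 left of day 3. Points are libraries, bars are group means and the macrophage-rich libraries of day 3 are marked. Those of day 7, replicate 3 of each group, are not marked. FAPs sit far above satellite cells for Ccl2 and Ccl7, Ccl11 is closer between them at day 7 than at day 3, and Ccl3, Ccl4 and Ccl6 are high mainly in the marked libraries.

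The first comparison set FAPs against satellite cells of the same muscle. Ccl2, Ccl7, Ccl11, Ccl8, Ccl9 and Ccl5 were higher in FAPs in all 4 settings (BAT or control, day 7 or day 3), by 2.05 to 7.36 on the log2 scale, and in 4 of 4 mice each time. Ccl3, Ccl4 and Ccl6 passed the main test in no setting. Called at an edgeR adjusted p under 0.05 over all genes tested were 6 of the 9 entries that passed the filter on low counts with BAT at day 7, where 49.9% of all genes were called (25.3% higher and 24.5% lower in FAPs). In control muscle at day 7 they were 6 of 10, where 45.1% were called (22.6% higher and 22.5% lower). At day 3 they were 7 of 10 with BAT, where 66.5% of all genes were called (35.4% higher and 31.1% lower), and 7 of 10 in control muscle, where 71.7% were called (35.9% higher and 35.8% lower). No entry was called lower. Without the mouse as a block, Ccl3 (-4.38 ± 1.65) and Ccl4 (-4.62 ± 1.64) were called lower in control muscle at day 3 (edgeR adjusted p = 0.0355 and 0.0281). With BAT at day 3, 9 of 10 entries were called higher once the mouse of FAP replicate 3 was left out. The 7 entries of the main fit were among them, so the added calls were among Ccl3, Ccl4, Ccl6 and the second Ccl19 entry. That fit kept the muscle with the macrophage-rich libraries. There Ccl3, Ccl4 and Ccl6 were at 53.6, 134 and 112 CPM in FAPs, and 25.6, 58.7 and 40.7 CPM in satellite cells. Of all genes, 5081 of 16285 were higher and 4289 lower in that fit. Without replicate 3 at day 7, the mouse against its sex label, 7 of 9 were called with BAT and 8 of 9 in control muscle, and at day 3 without the mouse of each macrophage-rich library 8 of 11 with BAT and 8 of 10 in control muscle. Of all genes, these day 7 fits called 4418 higher and 4134 lower of 16819 with BAT, and 3245 and 3088 of 17292 in control muscle. The day 3 fits called 5658 higher and 5219 lower of 16408 with BAT, and 5813 and 5753 of 16449 in control muscle. The median log2 difference of the tested entries was 2.60 with BAT and 3.31 in control muscle at day 7 (-0.03 and -0.05 over all genes), and 2.96 with BAT and 4.05 in control muscle at day 3 (0.04 and -0.03 over all genes). Since an entry could pass the filter through FAPs alone, these medians describe only the entries tested.

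Scaling to library totals alone, in place of the trimmed mean of M values, shifted the day 7 medians of all genes to -0.47 in both BAT and control muscle. It gave 2603 genes higher and 7262 lower in FAPs with BAT at day 7, against 4211 and 4077 with the main scaling, and 2399 higher and 7004 lower in control muscle, against 3839 and 3812. None of the 26 calls of members in this comparison changed direction under any alternative tried, and 25 kept their side of the threshold under all of them. The exception was Ccl8 with BAT at day 3, at 2.41 with an edgeR adjusted p of 0.113 without the mouse as a block.

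Ccl2, the main attractant of Ccr2-bearing monocytes, was far higher in FAPs than in satellite cells. At day 7 FAPs held 2274, 3165, 2662 and 1771 CPM of Ccl2 with BAT and 2234, 3339, 2924 and 1551 CPM in control muscle. The day 3 values were 3644, 6179.7, 5589 and 4902 CPM with BAT and 3627, 5359.8, 5903 and 4976 CPM in control muscle. Within FAPs every day 3 library lay above every day 7 library. Satellite cells held 232, 472, 683 and 134 CPM with BAT and 91.7, 716, 518 and 103 CPM in control muscle at day 7. Their day 3 values were 66.8, 253, 30.0 and 358 CPM with BAT and 42.9, 31.3, 213 and 14.6 CPM in control muscle. Every FAP library lay above every satellite cell library, by a wide margin, and within satellite cells the macrophage-rich control replicate 3 at day 3 stood above the others of its group. Ccl2 was higher in FAPs by 3.38 ± 0.29 with BAT and 3.72 ± 0.42 in control muscle at day 7 (log2 ± SE, 4 mice each, edgeR adjusted p = 8.23e-05 and 0.000475). At day 3 the log2 difference was 5.62 ± 0.75 with BAT and 6.94 ± 0.66 in control muscle (edgeR adjusted p = 0.000796 and 8.18e-05), and in control muscle it was 7.62 ± 0.20 without the mouse of the macrophage-rich library.

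Ccl7, its neighbour and a second Ccr2 ligand, followed the same order of groups at a lower level. At day 7 FAPs held 1479, 1483, 1889.7 and 821 CPM of Ccl7 with BAT and 1525, 1288, 1921 and 1033 CPM in control muscle. The day 3 values were 1124, 2406, 1902 and 2083 CPM with BAT and 1187, 2016, 2054 and 2039 CPM in control muscle. Within FAPs the days overlapped, and replicate 1 was the lowest at day 3. Satellite cells held 85.9, 129.6, 210.3 and 43.9 CPM with BAT and 36.0, 177, 123 and 33.4 CPM in control muscle at day 7. Their day 3 values were 22.4, 80.6, 9.35 and 123 CPM with BAT and 12.8, 9.59, 89.8 and 4.02 CPM in control muscle. Again no FAP library overlapped the satellite cells. The log2 difference was 4.19 ± 0.21 with BAT and 4.72 ± 0.43 in control muscle at day 7, and 5.76 ± 0.86 with BAT and 7.11 ± 0.72 in control muscle at day 3 (edgeR adjusted p = 9.29e-06, 0.000202, 0.00124 and 0.000108).

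Ccl11, the eosinophil attractant, came next. At day 7 FAPs held 212, 81.3, 158 and 188 CPM of Ccl11 with BAT and 295, 54.6, 121 and 254 CPM in control muscle. The day 3 values were 49.6, 105, 68.6 and 80.8 CPM with BAT and 76.6, 104, 81.8 and 83.2 CPM in control muscle. Replicates 1 and 4 were above replicates 2 and 3 at day 7, with BAT and in control muscle alike. Satellite cells held 55.8, 38.5, 61.3 and 18.7 CPM with BAT and 14.5, 39.5, 27.5 and 10.9 CPM in control muscle at day 7. Their day 3 values were 3.26, 3.08, 1.52 and 5.28 CPM with BAT and 1.44, 0.927, 3.45 and 0.366 CPM in control muscle. FAPs and satellite cells did not overlap in any setting, but at day 7 satellite cells came closer. The log2 difference was 2.34 ± 0.33 with BAT and 3.33 ± 0.71 in control muscle at day 7, and 4.75 ± 0.38 with BAT and 6.08 ± 0.42 in control muscle at day 3 (edgeR adjusted p = 0.000898, 0.00764, 0.000125 and 1.93e-05).

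Ccl8 was a minor transcript of FAPs and close to the limit of detection in most satellite cell libraries. At day 7 FAPs held 22.7, 10.3, 9.04 and 14.7 CPM of Ccl8 with BAT and 32.2, 9.01, 11.7 and 26.5 CPM in control muscle. The day 3 values were 27.0, 9.51, 5.49 and 10.2 CPM with BAT and 9.37, 9.07, 8.42 and 8.60 CPM in control muscle. The highest of these were control replicates 1 and 4 at day 7 and BAT replicate 1 at day 3. Satellite cells held 0.131, 0.358, 2.07 and 0.305 CPM with BAT and 0.0341, 0.161, 0.200 and 0.170 CPM in control muscle at day 7. Their day 3 values were 0.345, 0.723, 0 and 10.5 CPM with BAT and 0.265, 0.0216, 2.26 and 0.0457 CPM in control muscle. The highest value in each day 3 BAT group, replicate 1 of FAPs and replicate 4 of satellite cells, belonged to the macrophage-rich muscle, and only with BAT at day 3 did the cell types overlap. The log2 difference was 5.0 ± 0.75 with BAT and 7.36 ± 0.51 in control muscle at day 7, and 3.55 ± 0.79 with BAT and 4.84 ± 0.92 in control muscle at day 3 (edgeR adjusted p = 0.00115, 8.05e-05, 0.00691 and 0.00260). Without the mouse labelled male that carried Xist, the day 7 differences were 6.25 ± 0.38 with BAT and 7.76 ± 0.56 in control muscle.

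Ccl9, a Ccr1 ligand, was a day 3 transcript of FAPs. At day 7 FAPs held 3.66, 3.31, 14.6 and 1.46 CPM of Ccl9 with BAT and 4.0, 3.51, 11.2 and 1.99 CPM in control muscle. The day 3 values were 61.4, 40.3, 36.0 and 42.5 CPM with BAT and 30.5, 28.8, 22.2 and 41.5 CPM in control muscle. Every FAP library of day 3 was above every one of day 7. Satellite cells held 0.567, 0.438, 0.398 and 0.261 CPM with BAT and 0.375, 1.06, 1.0 and 0.0426 CPM in control muscle at day 7. Their day 3 values were 0.882, 3.88, 0.152 and 21 CPM with BAT and 0.379, 0.194, 13.6 and 0 CPM in control muscle. The cell types did not overlap, and in satellite cells only the macrophage-rich libraries of day 3 exceeded 4 CPM. The log2 difference was 3.81 ± 0.50 with BAT and 3.58 ± 0.50 in control muscle at day 7, and 4.12 ± 0.87 with BAT and 5.0 ± 1.04 in control muscle at day 3 (edgeR adjusted p = 0.000652, 0.00115, 0.00555 and 0.00398).

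Ccl5, which T cells and macrophages are known to make, was instead higher in FAPs at day 7. At day 7 FAPs held 34.9, 34.2, 7.72 and 23.3 CPM of Ccl5 with BAT and 35.5, 36.6, 10.1 and 43.5 CPM in control muscle. The day 3 values were 6.43, 5.41, 5.24 and 6.86 CPM with BAT and 9.29, 7.43, 7.14 and 8.79 CPM in control muscle. Replicate 3 was the lowest FAP library of day 7 in both treatments, and was still above every day 3 library of its treatment. Satellite cells held 2.70, 8.92, 3.38 and 6.27 CPM with BAT and 6.68, 8.48, 3.41 and 4.64 CPM in control muscle at day 7. Their day 3 values were 1.34, 1.5, 1.57 and 2.25 CPM with BAT and 2.39, 0.927, 3.57 and 0.868 CPM in control muscle. The cell types overlapped only with BAT at day 7, through FAP replicate 3. The log2 difference was 2.60 ± 0.38 with BAT and 2.76 ± 0.26 in control muscle at day 7, and 2.05 ± 0.19 with BAT and 2.38 ± 0.37 in control muscle at day 3 (edgeR adjusted p = 0.00104, 0.000241, 0.000178 and 0.000952). The T cell gene Cd3e was at 0.835 CPM or less in every library. The summed CPM of 10 T and NK cell genes had a median of 1.90 with BAT and 2.27 in control FAPs at day 7. At day 3 these were 1.38 and 1.20. In satellite cells the medians were 3.66 with BAT and 1.94 in control muscle at day 7, and 0.691 and 0.623 at day 3. Deviations of Ccl5 and of the macrophage sum from their group means correlated at -0.368 across the 16 FAP libraries. Across the 16 satellite cell libraries the value was 0.301. The part of leukocytes in the Ccl5 levels was not tested.

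Ccl19 was higher in FAPs at day 3, by 2.37 ± 0.51 with BAT and 3.26 ± 0.33 in control muscle (edgeR adjusted p = 0.00627 and 0.000113). FAPs held 0.582, 1.61, 1.45 and 1.26 CPM with BAT and 1.12, 3.08, 1.15 and 1.36 CPM in control muscle at that day, against 0.345, 0.509, 0.303 and 0 CPM with BAT and 0.265, 0.151, 0.158 and 0.137 CPM in control muscle in satellite cells, with no overlap. At day 7 the cell types overlapped, at 3.27, 2.56, 3.09 and 2.23 CPM with BAT and 2.86, 1.51, 2.77 and 2.98 CPM in control FAPs, against 2.57, 2.11, 5.17 and 1.35 CPM with BAT and 1.36, 2.35, 2.36 and 0.383 CPM in control satellite cells. The log2 difference was then 0.58 ± 0.32 and 1.22 ± 0.56 (edgeR adjusted p = 0.176 and 0.115); with BAT it was 0.90 ± 0.31 without replicate 3 (edgeR adjusted p = 0.0379). The second Ccl19 entry was at 1.54 CPM or less in every library.

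**Figure D2:**
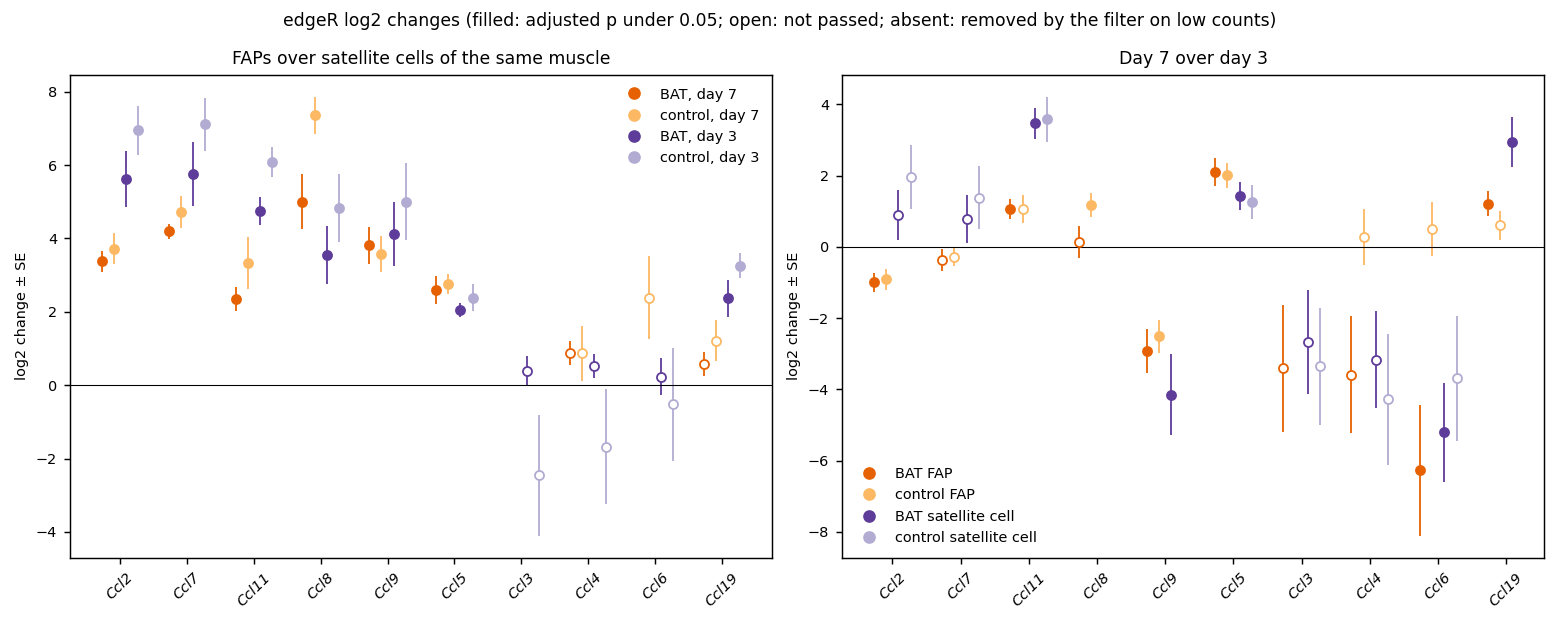
Log2 differences with standard errors for each gene, FAP against satellite cell and day 7 against day 3, with filled points where the edgeR adjusted p was under 0.05. Ccl2, Ccl7, Ccl11, Ccl8, Ccl9 and Ccl5 are above 0 in all 4 FAP against satellite cell settings, and only Ccl2, Ccl9 and Ccl6 have called decreases at day 7 in FAPs.

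Ccl3, Ccl4 and Ccl6, known as products of activated macrophages, were far lower outside the macrophage-rich libraries of day 3, at 6.08 CPM or less there in satellite cells of that day and 3.05 CPM or less in FAPs. In FAPs with BAT at day 3 Ccl3 was at 53.6, 1.02, 1.16 and 0.154 CPM, Ccl4 at 134, 2.27, 3.05 and 0.369 CPM and Ccl6 at 112, 1.68, 2.65 and 0.154 CPM. In control FAPs at day 3 they were at 0, 0.446, 0.397 and 0.0379, at 0.409, 1.04, 1.59 and 0.531 and at 0.483, 1.49, 1.06 and 0.189 CPM. A single BAT library, replicate 1, held almost all of the transcript. Satellite cells at day 3 showed the same with BAT replicate 4 (Ccl3 25.6, Ccl4 58.7 and Ccl6 40.7 CPM) and control replicate 3 (19.8, 95.1 and 35.2 CPM), against at most 2.38, 4.68 and 6.08 CPM in the other 6 libraries. At day 7 Ccl3 was at most 4.86 CPM, Ccl4 at most 9.0 CPM and Ccl6 at most 3.33 CPM in any library.

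Over the 32 libraries, log2 levels of Ccl3, Ccl4 and Ccl6 had a Pearson correlation of 0.946, 0.961 and 0.968 with the log2 macrophage sum, and of 0.971, 0.978 and 0.968 once group means were taken off both. In the 16 satellite cell libraries such deviations also correlated for Ccl9 (0.934), Ccl7 (0.901), Ccl8 (0.886), Ccl2 (0.866) and Ccl11 (0.770). In the 16 FAP libraries they were 0.435 for Ccl9, -0.186 for Ccl7, 0.274 for Ccl8, -0.0645 for Ccl2 and -0.312 for Ccl11. Deviations of the summed FAP marker genes also correlated with these genes in satellite cells, at 0.783, 0.659, 0.635, 0.609 and 0.460 in the same order. The points share libraries, mice and depth, and few libraries with a high sum carry much of each value. Neutrophil genes were also high in control satellite cells replicate 3 at day 3 (S100a8 at 44.3 CPM). Without the macrophage-rich library's mouse, Ccl6 in control muscle at day 3 was higher in FAPs by 1.15 ± 0.44 (edgeR adjusted p = 0.0337, 3 mice), at 0.483 to 1.49 CPM in the FAP replicates left. Without replicate 3 at day 7 it was higher by 4.20 ± 0.76 in control muscle (edgeR adjusted p = 0.00715), again at levels under 3 CPM.

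**Figure D3:**
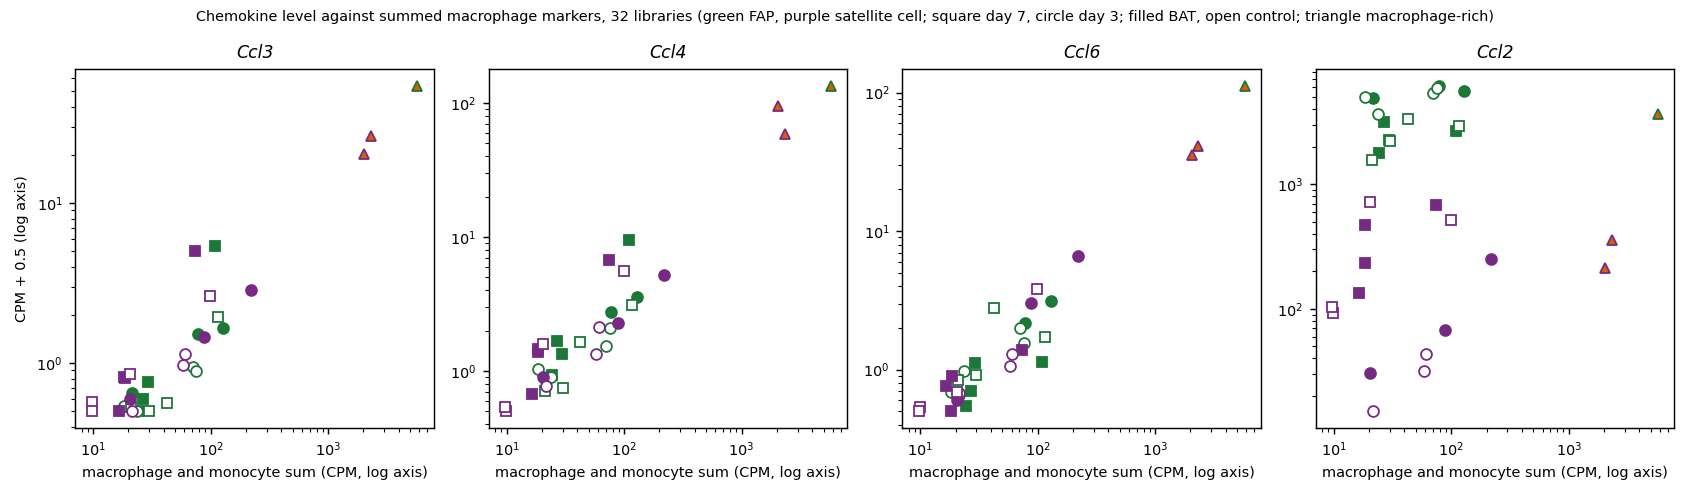
Level of Ccl3, Ccl4, Ccl6 and Ccl2 (CPM + 0.5) against the summed CPM of 26 macrophage and monocyte genes, both on log axes, with 1 point a library and FAPs and satellite cells in separate colours. Ccl3, Ccl4 and Ccl6 climb with the sum in both cell types, while Ccl2 in FAPs is as high in libraries with a low sum as in those with a high one.

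Transcripts of the listed FAP marker genes were present in the satellite cell libraries. The levels of Ccl2, Ccl7 and Ccl11 in satellite cells were therefore set beside the sum of these markers. Each is given as a percentage of the FAP level in the same muscle. The FAP marker sum was at 4.44 to 6.69% (median 5.12%) with BAT and 3.83 to 10.8% (8.06%) in control muscle at day 7, and at 1.15 to 10.1% (4.22%) with BAT and 1.09 to 4.34% (1.41%) in control muscle at day 3. Pdgfra alone was at 0.477 to 0.797% with BAT and 0.313 to 2.78% in control muscle at day 7. Ccl2 stood at 7.56 to 25.7% (median 12.6%) with BAT and 4.10 to 21.4% (12.2%) in control muscle at day 7, and at a median of 2.80% with BAT and 0.665% in control muscle at day 3. Ccl11 was at 9.95 to 47.4% (32.5%) with BAT and 4.30 to 72.3% (13.8%) in control muscle at day 7. Ccl7 was at 5.35 to 11.1% (7.27%) with BAT and 2.36 to 13.7% (4.83%) in control muscle at day 7. At day 7 the median percentages of Ccl2 and Ccl11 were above those of the marker sum, while that of Ccl7 was above it with BAT and below it in control muscle. At day 3 the medians of all 3 were below it, with Ccl7 at 2.58% with BAT and 0.552% in control muscle and Ccl11 at 3.79% and 1.26%. The median of Pdgfra alone was 1.48% with BAT and 0.287% in control muscle at day 3, and 0.629% and 0.635% at day 7. Beside Pdgfra, the medians of all 3 were above it at both days, so the order depended on the marker. How much of the satellite cell level, if any, came from FAP transcript was not tested.

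The second comparison set day 7 against day 3. In FAPs the family did not move together: Ccl5 was higher at day 7 and Ccl2 and Ccl9 lower, with BAT and in control muscle, while Ccl7 passed the test in neither. Among FAPs with BAT, 6 of 11 entries were called, 3 higher and 3 lower, where 22.9% of all genes were called (10.3% higher and 12.6% lower). Among control FAPs, 4 of 9 were called, 2 higher and 2 lower, where 22.9% of all genes were called (11.2% higher and 11.7% lower). The summed CPM of 5 pericyte genes was 67.9 to 76.9 with BAT and 53.1 to 91.8 in control FAPs at day 7, against 21.7 to 33.0 with BAT and 26.5 to 38.0 in control FAPs at day 3, and its part in these changes was not tested. Leaving out single libraries moved the counts of called entries to between 2 and 7 with BAT and between 2 and 5 in control muscle. The median log2 change was -0.36 with BAT and 0.50 in control muscle over the entries tested, and 0.04 and 0.08 over all genes.

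Ccl5 averaged 25.0 ± 12.7 CPM at day 7, against 5.99 ± 0.787 CPM at day 3 in FAPs with BAT, and 31.4 ± 14.7 against 8.17 ± 1.04 CPM in control FAPs (SD, n = 4 each). The days did not overlap, and the change was 2.10 ± 0.40 with BAT and 2.0 ± 0.36 in control muscle (log2 ± SE, edgeR adjusted p = 0.00749 and 0.00486). Ccl9 averaged 5.76 ± 5.99 CPM at day 7, against 45 ± 11.2 CPM at day 3 with BAT, and 5.16 ± 4.08 against 30.7 ± 8.01 CPM in control FAPs. It fell without overlap, by 2.92 with BAT and 2.51 in control muscle on the log2 scale (SE 0.61 and 0.45, edgeR adjusted p = 0.00955 and 0.00503). Replicate 3 held the highest Ccl9 of the day 7 FAPs in both treatments, and without it the change was -3.96 ± 0.37 with BAT and -3.20 ± 0.31 in control muscle.

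Ccl2 was also lower at day 7 without overlap, at a mean of 2468 ± 591 CPM against 5079 ± 1089 CPM at day 3 with BAT, and 2512 ± 786 against 4966 ± 970.4 CPM in control FAPs. The change was -0.99 ± 0.27 with BAT and -0.91 ± 0.30 in control muscle (edgeR adjusted p = 0.0258 and 0.0489). With BAT the call was lost without replicate 2 or 3 of day 3 or replicate 1 or 4 of day 7 (edgeR adjusted p up to 0.0824). In control muscle it was lost with DESeq2's size factors (edgeR adjusted p = 0.0549) and without replicate 2, 3 or 4 of day 3 or replicate 1 or 4 of day 7 (up to 0.147). Ccl7 changed by -0.36 ± 0.31 with BAT and -0.28 ± 0.26 in control muscle (edgeR adjusted p = 0.422 and 0.452), and its days overlapped. Ccl11 averaged 159.9 ± 56.9 CPM at day 7, against 76.0 ± 23.3 CPM at day 3 with BAT, and 181 ± 112 against 86.5 ± 12.2 CPM in control FAPs. Its change was called with BAT (1.07 ± 0.28, edgeR adjusted p = 0.0222) and not in control muscle (1.07 ± 0.39, edgeR adjusted p = 0.0703), where replicate 2 at day 7 lay below every day 3 library. The call with BAT was lost without replicate 3 or 4 of day 3 or replicate 1 or 4 of day 7 (edgeR adjusted p up to 0.0702). Whether these changes differed between BAT and control muscle is given by the interaction below.

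Among the minor transcripts of FAPs, Ccl8 was higher at day 7 in control muscle, at 1.19 ± 0.33 (edgeR adjusted p = 0.0281), and differed by 0.13 ± 0.45 with BAT (edgeR adjusted p = 0.864). The call was lost without any 1 control FAP library of day 3 or without replicate 1 or 4 of day 7 (edgeR adjusted p up to 0.0743). Ccl19 was higher with BAT, at 1.21 ± 0.35 (edgeR adjusted p = 0.0323), and differed by 0.60 ± 0.40 in control muscle (edgeR adjusted p = 0.299). That call was lost without a filter, and without replicate 3 or 4 of day 3 or replicate 1 or 2 of day 7 (edgeR adjusted p up to 0.0853). The call of a lower Ccl6 with BAT, -6.27 ± 1.84 (edgeR adjusted p = 0.0347), was lost without the macrophage-rich replicate 1 at day 3. It was then -2.0 ± 0.91 (edgeR adjusted p = 0.142), and the uncalled changes of Ccl3 and Ccl4 turned to 0.76 ± 1.38 and 0.62 ± 1.02. The Ccl6 call was also lost without replicate 1, 2 or 4 of day 7 (-6.59 to -5.89, edgeR adjusted p up to 0.0892). Without the day 7 replicate 3, 7 of 11 entries were called with BAT (3 higher, 4 lower) and 5 of 9 in control muscle (3 higher, 2 lower). Of all genes, 2185 were then higher and 2511 lower of 16509 with BAT, and 2357 and 2260 of 16514 in control muscle. Ccl11 then passed in control muscle too (1.22 ± 0.40, edgeR adjusted p = 0.0464).

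In satellite cells the gene that changed most firmly with day was Ccl11. It was at 55.8, 38.5, 61.3 and 18.7 CPM at day 7, against 3.26, 3.08, 1.52 and 5.28 CPM at day 3 with BAT, and at 14.5, 39.5, 27.5 and 10.9 against 1.44, 0.927, 3.45 and 0.366 CPM in control muscle. All 8 day 7 libraries exceeded all 8 of day 3, and the change was 3.47 ± 0.43 with BAT and 3.59 ± 0.63 in control muscle (edgeR adjusted p = 0.000140 and 0.000826). Markers of other cell types moved with day in the same libraries. The pericyte sum was 638 to 1247 (median 1117) with BAT and 462 to 1508 (643) in control satellite cells at day 7, against 35.4 to 53.7 (35.5) with BAT and 36.1 to 44.1 (39.3) in control muscle at day 3; Rgs5, a pericyte marker, was at 0 in none. That of 6 endothelial genes was 12.7 to 25.1 with BAT and 17.3 to 22.3 in control muscle at day 7, against 2.28 to 8.59 with BAT and 2.88 to 8.72 in control muscle at day 3, most of it from Tek at day 7. Their part in the satellite cell changes was not tested. With BAT 5 of 9 entries were called (3 higher, 2 lower), where 52.9% of all genes were called (28.5% higher and 24.4% lower). In control muscle it was 2 of 7, both higher, where 59.4% were called (29.7% higher and 29.8% lower). Scaling to library totals gave 6127 genes higher and 2759 lower with BAT, against 4650 and 3981, and 6991 higher and 3179 lower in control muscle, against 4926 and 4939, with the median of all genes at 0.36 and 0.39 in place of 0.11 and 0.03.

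Ccl5 was higher at day 7 by 1.43 ± 0.40 with BAT and 1.25 ± 0.48 in control satellite cells (edgeR adjusted p = 0.0113 and 0.0449), and Ccl19 by 2.94 ± 0.70 with BAT (edgeR adjusted p = 0.00508). The Ccl5 call in control satellite cells was lost without replicate 1, 2 or 4 of day 3 or replicate 1 or 2 of day 7 (edgeR adjusted p up to 0.115). With BAT, Ccl6 (-5.20 ± 1.38) and Ccl9 (-4.15 ± 1.14) were lower (edgeR adjusted p = 0.00931 and 0.0109), and the highest day 3 value of both was the macrophage-rich replicate 4. Without that library both were still called lower, at -3.32 ± 1.06 and -2.37 ± 0.79 (edgeR adjusted p = 0.0231 and 0.0284). Of the day 3 libraries left, replicate 2 (macrophage sum 220 CPM) held the most Ccl6 (6.08 CPM) and Ccl9 (3.88 CPM). Replicate 1 (88.3 CPM) was at 2.53 and 0.882 CPM, and replicate 3 (20.5 CPM) at 0.101 and 0.152 CPM. The macrophage sum at day 7 was 16.5 to 74.3 CPM, and its part in these 2 changes was not tested. Ccl2 and Ccl7 were not called with BAT, at 0.89 ± 0.70 and 0.78 ± 0.68 (edgeR adjusted p = 0.300 and 0.357). They stayed uncalled without the macrophage-rich replicate 4 of day 3, at 1.36 ± 0.71 and 1.29 ± 0.68 (edgeR adjusted p = 0.131 and 0.136). In control satellite cells Ccl2 and Ccl7 depended on 1 library. With all libraries their changes were 1.95 ± 0.90 and 1.38 ± 0.90 (edgeR adjusted p = 0.0835 and 0.206), and without the macrophage-rich replicate 3 at day 3 they were 3.22 ± 0.80 and 3.01 ± 0.69 (edgeR adjusted p = 0.00624 and 0.00411). Leaving that library out brought the count in control satellite cells to 5 of 9 entries, with Ccl19 also called (2.75 ± 0.68). Without the day 7 replicate 3 it was 6 of 9, with Ccl3, Ccl4 and Ccl6 called lower, at -5.31 ± 2.02, -6.13 ± 2.28 and -6.97 ± 2.23, and with the macrophage-rich day 3 library still in. With BAT, 6 of 10 entries were called without the macrophage-rich day 3 library and 7 of 9 without the day 7 replicate 3. Of all genes, the control fits called 4950 higher and 4760 lower of 17190, and 5492 and 4815 of 17060, in that order. The fits with BAT called 4367 and 4392 of 17002, and 4748 and 4127 of 16702. Each fit leaves out 1 macrophage-rich library, and both were not left out together.

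Ccl2 thus moved differently with day in the 2 cell types of control muscle. Its change from day 3 was lower in FAPs than in satellite cells by 3.25 on the log2 scale: the interaction was -3.25 ± 0.80 (edgeR adjusted p = 0.0164). It was 1 of 10 entries called, where 23.8% of all genes were called (8.39% higher and 15.4% lower). Ccl7 (-2.42 ± 0.84), Ccl11 (-2.81 ± 0.96) and Ccl19 (-2.05 ± 0.72) missed the threshold (edgeR adjusted p = 0.0618, 0.0599 and 0.0672). Without the mouse of the macrophage-rich day 3 library 4 of 11 were called, namely Ccl2 (-3.89 ± 0.54), Ccl7 (-3.13 ± 0.53), Ccl9 (-3.69 ± 0.80) and Ccl11 (-3.40 ± 0.98), all negative. Of all genes, 2988 to 4290 were called when single mice were left out, this fit among them, against 4306 of 18069 in the main fit. Without the day 7 replicate 3, 1536 were higher and 2754 lower of 18417. The call of Ccl2 was lost without mouse blocks (-2.97, edgeR adjusted p = 0.0617) and without the mouse of day 3 FAP replicate 2 (-3.13, 0.0518) or 3 (-2.92, 0.0581); without the day 7 replicate 3 it was -2.93 ± 0.84 (edgeR adjusted p = 0.0336). By library totals 714 genes were higher and 4575 lower, against 1516 and 2790, and the median of all genes was -0.41 in place of -0.12.

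The balance between the Ccr2 ligands also differed. The ratio of Ccl2 to Ccl7 CPM was 1.81 ± 0.39 in FAPs with BAT and 1.77 ± 0.55 in control FAPs at day 7, and 2.78 ± 0.39 with BAT and 2.76 ± 0.27 in control FAPs at day 3 (SD, n = 4 each). In satellite cells it was 3.16 ± 0.39 with BAT and 3.47 ± 0.79 in control muscle at day 7, and 3.06 ± 0.14 with BAT and 3.15 ± 0.54 in control muscle at day 3. The ratio was lower in FAPs than in satellite cells of the same muscle in 8 of 8 muscles at day 7 and in 6 of 8 at day 3. Both exceptions at day 3 were muscles with a macrophage-rich library, with ratios of 3.24 in FAPs against 2.91 in satellite cells and of 2.44 against 2.38.

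**Figure D4:**
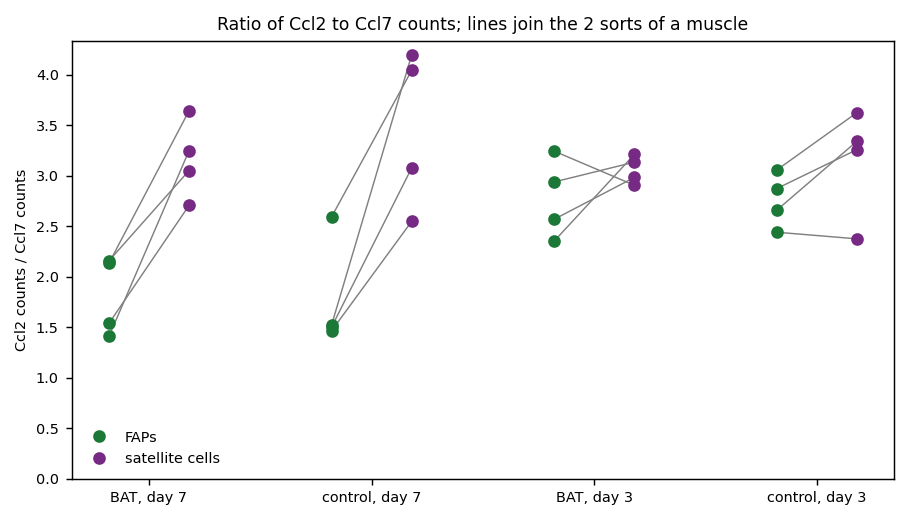
Ratio of Ccl2 to Ccl7 CPM in FAPs and in satellite cells of the same muscle, joined by a line, by day and treatment. The FAP value is the lower one in all 8 muscles at day 7 and in 6 of 8 at day 3.

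The third comparison, which the study was set up to make, was BAT against control muscle of the same mouse. No member passed the test in FAPs or satellite cells at either day, and hardly any gene did: 0% of genes were called in FAPs at day 7, 0.0188% in FAPs at day 3, 0.0178% in satellite cells at day 7 and 0% in satellite cells at day 3. At an unadjusted p under 0.05 there were 1 of 10 entries in FAPs at day 7, 3 of 10 in FAPs at day 3, 4 of 8 in satellite cells at day 7 and 0 of 8 in satellite cells at day 3, where 4.89, 4.58, 7.48 and 3.02% of all genes were, in that order. DESeq2 called 0 entries in each of the 4. The lowest edgeR adjusted p of any member in these comparisons was 0.953, 0.957, 0.626 and 0.9998, in the same order. The unadjusted count in satellite cells at day 3 rose when the mice of the macrophage-rich libraries were left out. Ccl2, Ccl3, Ccl4, Ccl6, Ccl7, Ccl9 and Ccl11 were then under 0.05, all higher with BAT, while Ccl5, Ccl8 and Ccl19 were not. Only the mice of replicates 1 and 2 were left in that fit. In replicate 2 the macrophage sum was 220 CPM with BAT against 58.2 in control muscle, and the FAP marker sum 1984 against 379. Ccl2 was at 253 against 31.3 CPM there, and at 66.8 against 42.9 CPM in replicate 1. The part of these sums in the differences was not tested. Of all genes, 627 of 16328 were under 0.05 in that edgeR fit, and no member was called.

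Ccl2 and Ccl7, the most abundant FAP chemokines, were measured more tightly than Ccl11, whose day 7 log2 ratios within mice ran from -0.47 to 0.57. In FAPs at day 7 the BAT effect was 0.02 ± 0.10 for Ccl2, -0.03 ± 0.11 for Ccl7 and 0.03 ± 0.18 for Ccl11, and at day 3 it was 0.06 ± 0.09 for Ccl2, 0.06 ± 0.09 for Ccl7 and -0.20 ± 0.11 for Ccl11 (log2 ± SE, 4 mice each). BAT was higher in 2 of 4 mice for Ccl2 at both days. The 3 signs at day 7 were set by single mice and by the pairing: without the mouse block they were -0.014 for Ccl2, 0.00286 for Ccl7 and -0.15 for Ccl11. Ccl5 was lower with BAT in 4 of 4 mice at day 7 (-0.33 ± 0.15, edgeR adjusted p = 0.953) and in 4 of 4 at day 3 (-0.42 ± 0.14, edgeR adjusted p = 0.957). At day 3 its values with BAT, 5.24 to 6.86 CPM, lay below all of the control values, 7.14 to 9.29 CPM. With BAT, Ccl9 was the higher in each of 4 mice at day 3 (0.59 ± 0.17, edgeR adjusted p = 0.957), with overlapping ranges and with its highest value in the macrophage-rich library.

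In satellite cells at day 7, Ccl11 was higher with BAT by 0.98 ± 0.26 (edgeR adjusted p = 0.626, higher in 3 of 4 mice), Ccl7 by 0.51 ± 0.22 and Ccl2 by 0.40 ± 0.24, each with overlapping groups. Without the day 7 replicate 3 the Ccl11 difference was 0.90 ± 0.30 (edgeR adjusted p = 0.474). At day 3 the same genes differed by 1.35 ± 0.76, 1.69 ± 1.46 and 1.60 ± 1.36, with a macrophage-rich library in either group. The standard errors of Ccl7 and Ccl2 were near the size of the difference. Without the 2 mice of the macrophage-rich libraries the values were 1.46 ± 0.32, 1.97 ± 0.42 and 1.84 ± 0.45 (edgeR adjusted p = 0.651, 0.614 and 0.780). These rest on the mice of replicates 1 and 2 alone. In FAPs at day 3, Ccl3 was higher with BAT by 3.95 ± 1.56, and by 1.43 without the mouse of the macrophage-rich library.

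Differences of the BAT effect were tested directly as interactions. No member was called for day 7 minus day 3 in FAPs (0% of genes called) or satellite cells (0%), nor for FAPs minus satellite cells at day 7 (0%) or day 3 (0.0229%). At an unadjusted p under 0.05 there were 2 of 11, 0 of 11, 2 of 11 and 0 of 10 entries, in that order, against 3.35, 5.12, 6.68 and 3.15% of all genes. DESeq2 called 0, 0, 1 and 0 entries. The lowest p was that of Ccl8 at day 7, -2.48 ± 0.51 for FAPs minus satellite cells (edgeR adjusted p = 0.691; DESeq2 adjusted p = 0.0301). Without the macrophage-rich replicate 3 it was -1.49 ± 0.56 (edgeR adjusted p = 0.595). Ccl8 in satellite cells at day 7 was at 0.131, 0.358, 2.07 and 0.305 CPM with BAT, against 0.0341, 0.161, 0.200 and 0.170 CPM in control muscle, values that are mostly within a few counts of 0.

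**Figure D5:**
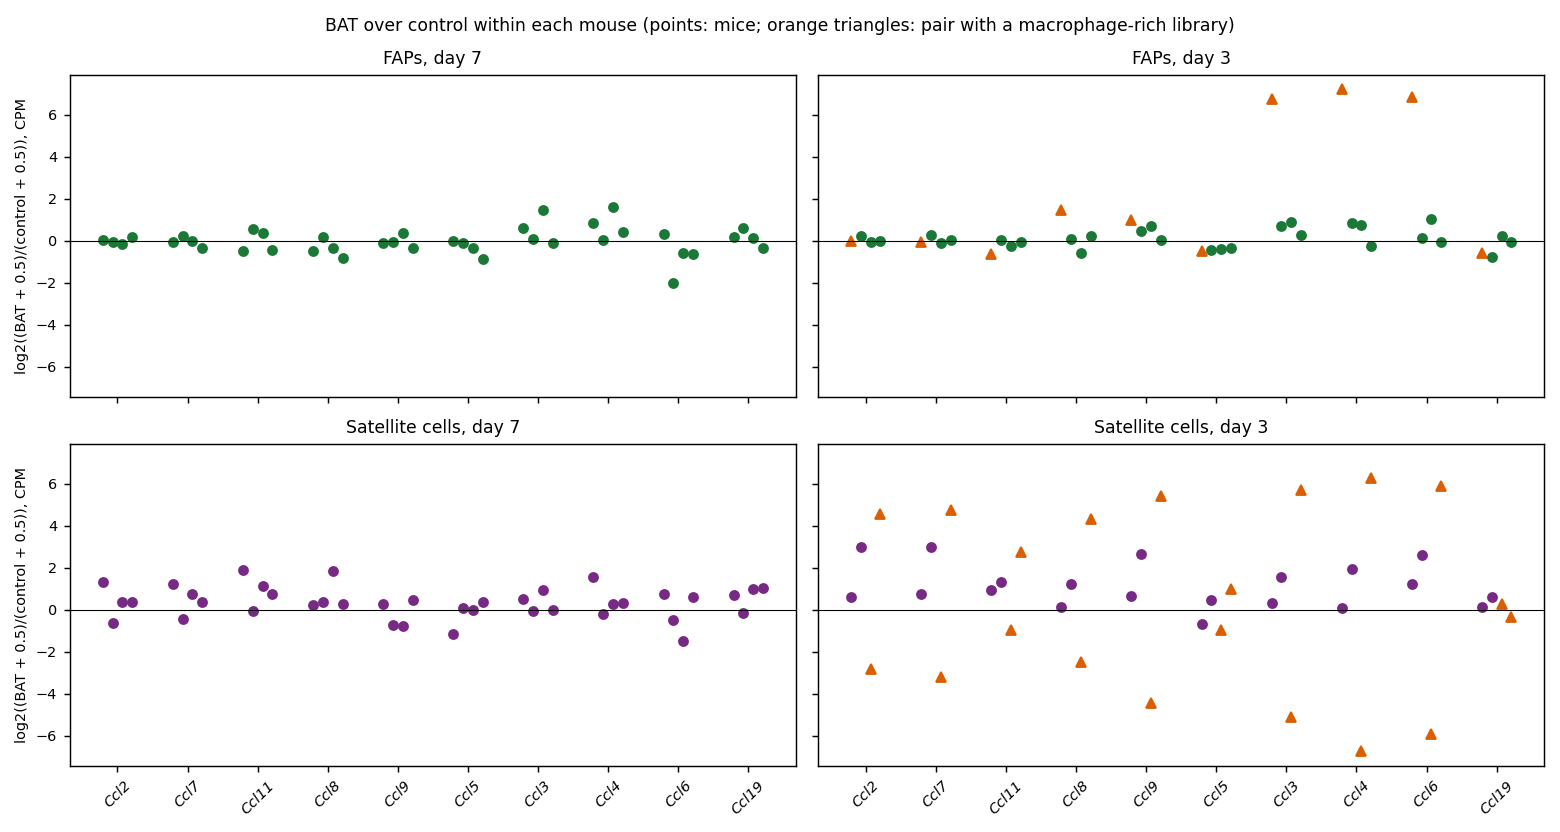
Log2 ratio of BAT to control CPM in each mouse (pseudocount 0.5) for each gene, in FAPs and satellite cells at day 7 and day 3. FAP points of Ccl2 and Ccl7 lie between -0.33 and 0.26, those of Ccl11 fall on both sides of it between -0.62 and 0.57, those of Ccl5 are below 0 in 4 of 4 mice at both days, and satellite cell points spread widely at day 3.

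Genes with the most similar pattern were sought among 19123 genes by the Pearson correlation of log2(CPM + 0.5) over the 32 libraries, and of the deviations from the 8 group means. By level, Cxcl1 (0.98), Gfpt2 (0.97) and Rpl39l (0.97) were most like Ccl2, and Tnfaip6 (0.99), Ifi205 (0.98) and Papss2 (0.98) most like Ccl7. By deviation, Ptgs2 (0.92), Cxcl2 (0.90) and Cxcl1 (0.89) were most like Ccl2, and Tnfaip6 (0.92), Ptgs2 (0.91) and Icam1 (0.90) most like Ccl7. Ccl2 and Ccl7 themselves correlated at 0.97 by deviation. The nearest genes to Ccl3 and Ccl4 by deviation included Clec4e, Cd14 and Cd53, which macrophages express, and those nearest to Ccl6 were Trem2, Lilrb4a and Lcp1. Ccl5 was nearest to Clec1a (0.82) and Ccl11 to Ifi203 (0.83) by deviation, Ccl8 to H2-K1 (0.87) and Ccl9 to Mmp19 (0.93). The libraries share mice, muscles and the depth of each count, so these values are descriptions.

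Of the 10 Ccr receptor genes, at most 6 were above the filter in any comparison. Levels in a macrophage-rich library are given for Ccr2 and Ccr1 only. Ccr2 reached 16.5 CPM in FAPs with BAT replicate 1 at day 3 and was at 0.245 CPM or less in FAPs at day 7; Ccr1 reached 40.7 CPM in that same library. Called higher in FAPs than in satellite cells were Ccr7 in control muscle at day 7 (1.87 ± 0.63, 1 of 1 tested) and Ccr9 (3.90 ± 0.75) and Ccr1 (1.25 ± 0.44) with BAT at day 3 (2 of 5 tested). Of the 5 atypical receptors, 3 were higher in FAPs and 1 (Ccrl2, -0.46 ± 0.14) lower with BAT at day 7, 3 higher in control muscle at day 7, 4 of 4 higher with BAT and 3 of 5 higher in control muscle at day 3. Of all genes, 25.3% were higher and 24.5% lower with BAT and 22.6% and 22.5% in control muscle at day 7. At day 3 these were 35.4% and 31.1% with BAT and 35.9% and 35.8% in control muscle.

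Ackr2, a scavenger of inflammatory CC chemokines, was at 16.7 ± 17.3 CPM in control FAPs, against 0.131 ± 0.137 CPM in satellite cells at day 7 (SD, n = 4 each), a log2 difference of 7.01 ± 1.10 (edgeR adjusted p = 0.00205). Ackr3, a scavenger of CXC chemokines, was the most abundant, at 293 ± 129.7 CPM in FAPs, against 55.3 ± 13.7 CPM in satellite cells (2.71 ± 0.28, edgeR adjusted p = 0.000337). Ackr4, which binds Ccl19, differed by 4.16 ± 0.30 in the same comparison. At day 7 against day 3, Ackr2 (3.43 ± 0.87), Ackr4 (3.09 ± 0.49), Ackr1 (1.82 ± 0.58) and Ccrl2 (1.13 ± 0.32) were higher in control FAPs (4 of 5), and Ackr2 (3.72 ± 0.75) and Ackr4 (3.31 ± 0.77) in FAPs with BAT (2 of 5). Of all genes, 11.2% were higher at day 7 in control FAPs and 10.3% in FAPs with BAT.

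Among 14 entries of other CC chemokines, Ccl20, the ligand of Ccr6, was the one above 10 CPM. It averaged 9.82 ± 8.75 CPM with BAT and 15.6 ± 15.7 CPM in control FAPs at day 7, and 32.3 ± 18.3 CPM with BAT and 27.7 ± 18.6 CPM in control FAPs at day 3, while no satellite cell library exceeded 5.55 CPM. It was higher in FAPs by 3.43 ± 0.34 with BAT and 3.95 ± 0.27 in control muscle at day 7, and by 5.87 ± 0.89 with BAT and 7.13 ± 0.61 in control muscle at day 3 (edgeR adjusted p = 0.000169, 7.81e-05, 0.00134 and 4.88e-05). Like Ccl2, it had a lower change with day in FAPs than in satellite cells of control muscle (-3.25 ± 0.80, edgeR adjusted p = 0.0163). Others called at day 7 in control muscle were Ccl12 (3.87 ± 0.71), Ccl27a (-0.85 ± 0.22) and Ccl21a (-2.68 ± 0.88), the last 2 with near-identical copies that make their counts uncertain.

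A list of 23 inducers and regulators of CC chemokines (cytokines, their receptors, Toll-like receptors and the NF-kB pathway) was mostly higher in FAPs. Of 22 tested at day 7, 21 were higher with BAT and 18 in control muscle, and none was lower. Of all genes, 25.3% were higher and 24.5% lower with BAT at day 7, and 22.6% higher and 22.5% lower in control muscle. At day 3 20 of 23 were higher and 1 lower with BAT, and 19 of 22 higher and 2 lower (Il1b, -4.37 ± 0.80, and Nfkb2, -0.64 ± 0.14) in control muscle. Of all genes, 35.4% were higher and 31.1% lower with BAT at day 3, and 35.9% higher and 35.8% lower in control muscle. The largest in control muscle were Il33 (4.83 ± 0.44), Tlr2 (2.80 ± 0.25), Icam1 (2.75 ± 0.30) and Il1r1 (2.33 ± 0.22) at day 7, and Il6 (6.16 ± 0.44), Icam1 (4.59 ± 0.63), Il33 (3.90 ± 0.15) and Il13ra1 (3.55 ± 0.16) at day 3. Between days, 4 of 22 were higher at day 7 in FAPs with BAT and 5 of 22 in control FAPs, with none lower, where 10.3% and 11.2% of all genes were higher. In satellite cells, where 28.5% and 29.7% of all genes were higher, these were 12 of 22 higher and 1 lower with BAT and 13 of 22 higher and 1 lower in control muscle. The interaction in control muscle called 0 of 23 higher and 8 lower in FAPs than in satellite cells, led by Il6 (-3.96 ± 0.62), Il4ra (-2.11 ± 0.26) and Birc3 (-2.04 ± 0.22). Of all genes it called 8.39% higher and 15.4% lower. Comparing BAT with control muscle, the lowest edgeR adjusted p of any gene in the 4 lists was 0.953 in FAPs at day 7 (32 genes tested), 0.462 in FAPs at day 3 (34), 0.626 in satellite cells at day 7 (30) and 0.9998 in satellite cells at day 3 (28).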

How the data were processed

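Per the labels' protocols, libraries came from a SMARTer kit for small amounts of RNA. DRAGEN and build mm10 appear in the submitters' processing notes; their versions, the annotation, any use of strand and the handling of reads matching several genes are not given in the sources here. The authors deposited 1 table of expected counts for each day, not normalised. Each held 55774 entries, of which 287 exact repeats were removed; rounding to whole numbers moved a library total by at most 0.000343%.

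Counts were tested with edgeR 4.0.16 (trimmed mean of M values, filterByExpr with a minimum count of 10, quasi-likelihood F test, Benjamini-Hochberg adjustment over all genes tested, called under 0.05), with R 4.3.3. An SE is the log2 difference over the square root of F. The mouse was a block, except between days. Mouse codes in the labels give the pairs; the 4 day 3 libraries without a code were taken as 1 mouse, an inference. Between paired BAT and control libraries, deviations from group means correlated at a mean of 0.433 in FAPs and 0.321 in satellite cells at day 7, and 0.0959 and -0.0809 at day 3. CPM used library totals; TPM used merged exon lengths of GENCODE M21. The test was checked on simulated counts. Alternatives were DESeq2 1.42.0, its size factors, library totals alone, no filter, no block, leaving out each replicate, and leaving out macrophage-rich libraries of day 3 (in blocked fits, their mouse); those of day 7 are replicate 3. No column lacked a sample. The members, the gene lists and the 3-fold rule for macrophage-rich libraries were chosen with earlier results of these data known. The text names each member and, per comparison, up to 4 called genes of each list with the largest change.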

Additional observations from a re-analysis of the deposited data

Results flagged for a closer look

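In groups of 4, a library was picked out where its gap to the nearest other exceeded Dixon's 95% limit, which chance alone exceeds in about 1 of 20 groups. Values are CPM, and most belong to macrophage-rich libraries. In FAPs with BAT at day 3, replicate 1 stood apart for Ccl3 (53.6), Ccl4 (134) and Ccl6 (112). In satellite cells with BAT at day 3, replicate 4 did so for Ccl3 (25.6), Ccl4 (58.7), Ccl6 (40.7) and Ccl8 (10.5). In control satellite cells at day 3, replicate 3 stood apart for Ccl2 (213, others 14.6 to 42.9), Ccl7 (89.8), Ccl3 (19.8), Ccl4 (95.1), Ccl6 (35.2), Ccl8 (2.26) and Ccl9 (13.6).

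At day 7 every such high value was from replicate 3, the mouse whose sex transcripts went against its label. With BAT it was high for Ccl3 (4.86), Ccl4 (9.0) and Ccl9 (14.6) in FAPs and for Ccl3 (4.5), Ccl4 (6.21) and Ccl8 (2.07) in satellite cells. In control muscle it was high for Ccl3 in FAPs (1.45) and for Ccl3 (2.12), Ccl6 (3.33) and the second Ccl19 entry (1.0, others 0) in satellite cells.

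Not macrophage-rich were control FAPs replicate 1 at day 3, low for Ccl7 (1187, others 2016 to 2054), and control FAPs replicate 2, high for Ccl19 at day 3 (3.08) and low for it at day 7 (1.51), in different mice. The change of Ccl2 with day differed between FAPs and satellite cells of control muscle by the interaction test, at -3.25 on the log2 scale.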

How the results depend on the processing

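Of 44 calls of members, 35 kept their side of the threshold under every alternative tried and none changed direction; the 9 others lost the call under at least 1. For FAPs against satellite cells 25 of 26 calls kept it, and between days 10 of 17. Without the mouse as a replicate block, Ccl8 with BAT at day 3 lost its call (2.41), the paired BAT effect in FAPs at day 7 turned to -0.15 for Ccl11, -0.014 for Ccl2 and 0.00286 for Ccl7, Ccl3 (-4.38) and Ccl4 (-4.62) were called lower in FAPs than in satellite cells of control muscle at day 3, and the interaction of day and cell type called 2 members (Ccl11 and Ccl19) in place of 1 (Ccl2); the block changed no other member's call between BAT and control.

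Counts of called members moved as follows. Between days in control satellite cells (2), they were 4 without a filter and 5 without the macrophage-rich day 3 library. Of all genes, 5404 were higher and 4785 lower of 31024 without a filter, and 4950 and 4760 of 17190 without that library. For the interaction of day and cell type (1), they were 4 with DESeq2, 4 with library totals, 3 without a filter and 4 without the mouse of the macrophage-rich day 3 library. Its counts over all genes with DESeq2 and without a filter are not given here, so those member counts cannot be read against them. Without a filter, 3 members were called for BAT in satellite cells at day 7 (Ccl7, Ccl11 and the second Ccl19 entry), 1 for the change of the BAT effect with day in FAPs (Ccl6) and 2 for that between cell types at day 7 (Ccl8 and Ccl11), where DESeq2 called 1 (Ccl8). Leaving out single replicates gave 2 to 5 members between days in control FAPs (4), 2 to 7 in FAPs with BAT (6), 1 to 6 in control satellite cells (2) and 0 to 4 for the interaction of day and cell type (1). For why these moved, the cause was not tested.

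Uncalled changes that reversed when single replicates were left out ranged as follows: for BAT in FAPs at day 7, Ccl11 -0.16 to 0.21, Ccl2 -0.055 to 0.069 and Ccl7 -0.11 to 0.053; between days in FAPs with BAT, Ccl3 -6.80 to 0.76 and Ccl4 -5.36 to 0.62; in control FAPs, Ccl4 -0.61 to 0.73 and Ccl6 -0.33 to 1.05; and in control satellite cells, Ccl3 -5.31 to 0.29, Ccl4 -6.13 to 0.35 and Ccl6 -6.97 to 0.34. The upper ends for FAPs with BAT and for control satellite cells are those without the macrophage-rich day 3 library, which carried these transcripts.

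Over all genes, BAT in FAPs at day 3 called 3 with edgeR, 40 with DESeq2, 63 without a filter, 0 without a replicate block and 27 without the mouse of the macrophage-rich library. BAT in FAPs at day 7 called 0, 23 with DESeq2 and 145 without a filter. In satellite cells at day 7 it called 3, 40, 206 and, without a replicate block, 0, and at day 3 it called 0, or 1 without the mice of the macrophage-rich libraries. Its change with day called 0 in FAPs (DESeq2 1, no filter 100) and 0 in satellite cells (7 and 1), and that between cell types called 4 at day 3 (12 and 15, and 0 without a replicate block) and 0 at day 7 (7 and 183). Without single replicates, 1979 to 4617 genes were called between days in control FAPs (3692) and 1890 to 4696 in FAPs with BAT (3686), and at most 27 and 14 for BAT in FAPs at day 3 and satellite cells at day 7. Between days in control satellite cells (9865) they were 8951 to 10307, and for the interaction of day and cell type (4306) 2988 to 4290. In 8 results DESeq2 gave no adjusted p, and they were left out. Members near the limit of detection, chiefly Ccl3, Ccl6, Ccl8 and Ccl19 in satellite cells, could not be tested in some comparisons at this depth.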
